A study of Homo sapiens with 12 samples.

Results

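The genes described here encode the laminins and the proteins that join laminin to the rest of the basement membrane: the laminin alpha chains LAMA2, LAMA4 and LAMA5, the beta chains LAMB1 and LAMB2, the gamma chain LAMC1, the nidogens NID1 and NID2, and the heparan sulfate proteoglycans HSPG2 (perlecan) and AGRN (agrin). They were taken by gene name from the table of counts, and make up 10 of its 35741 genes. All 10 were among the 15715 genes that passed the filter on low counts, NID1 with only 8 to 17 counts per library and the others with 158 to 18366. The libraries were made from mRNA of U87, an established human glioblastoma line, in 4 groups of 3. Cells were seeded at 50000 per well, and control cells were wild type and untreated. The other groups had received sgPNA-10b (PNA-10b), sgPNA-21 (PNA-21) or both (PNA-10b+21), each at 150 nM for 72 h in nanoparticles, which the labels abbreviate BNP, and the labels call them knockdowns of miR-10b, of miR-21 and of both. A peptide nucleic acid (PNA) is a synthetic strand that pairs with RNA, here with a microRNA. The combined group thus carried both doses, and all 3 treated groups carried nanoparticles while the control group did not. No library of nanoparticles without sgPNA was analysed here, so an effect of the carrier cannot be told apart from that of the sgPNA in any comparison with control. Nothing in the labels tells whether replicates were separate cultures, so p-values measure differences against the spread between these libraries, which may be technical.

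A basement membrane is a thin sheet of matrix against which epithelial, endothelial, muscle and glial cells rest. Its laminins are cross-shaped trimers of an alpha, a beta and a gamma chain, joined through a coiled coil and secreted as trimers, and they polymerise at the cell surface on integrins and dystroglycan. Nidogens bridge the laminin network to the collagen IV network, and perlecan and agrin bring heparan sulfate chains that hold growth factors. In the brain these proteins surround the vessels and cover the pial surface, and glioma cells are known to migrate along both. Bulk RNA cannot tell fewer cells of a kind from less RNA per cell.

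Blocking a microRNA can raise transcripts that carry a match to its seed, so the 3′ untranslated regions of the 10 genes were searched. The sequence is that of the microRNA addressed by sgPNA-21, with its seed, bases 2 to 8, in capitals, 5′ to 3′ (RefSeq, GRCh38.p14, chr17:59841273-59841294, plus strand). The mature miR-10b-5p is named only.
hsa-miR-21-5p: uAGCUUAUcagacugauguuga
The letters that pair with the seed are ATAAGCT for miR-21-5p and ACAGGGT for miR-10b-5p, read on the transcript strand of the longest annotated 3′ untranslated region. None of the 10 genes held either of them. Of the 12234 tested genes with such a region, 10.4% held ATAAGCT and 15.0% held ACAGGGT. The regions of the 10 genes ran from 112 bases (LAMB2) to 2802 (LAMC1), and a short region has fewer places for a match. The shorter match TAAGCT was present in 28.7% of all regions and in LAMA5 alone among the 10, at position 89 of its region, and CAGGGT was present in 37.7% of all regions and in none of the 10. The LAMA5 match is printed with its neighbouring bases, as it is the gene of this set with the largest change against control, and the match is in capitals.
LAMA5: atttggactcTAAGCTctacgggtga
These are matches of letters in the annotation and were not measured as binding sites.

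Total counts per library ran from 12846676 to 18305820, and the 10 genes together took 0.201% to 0.282% of them. Levels are CPM, counts relative to the TMM-scaled library size. Control 3, the shallowest library, had the highest level of the 3 control libraries for 9 of the 10 genes, AGRN being the exception, against 35.7% of all kept genes. Its removal is among the alternatives. The label of a glioblastoma line was checked against marker genes fixed for it. VIM at 1800.1 ± 112.1 CPM (SD, n = 3), CD44 at 1421.8 ± 24.4 and CHI3L1 at 1358.3 ± 189.6 were abundant in control, whereas GFAP was at 3.99 ± 0.799, OLIG2 at 1.61 ± 0.535, and SOX2 had 0 to 2 counts in every library. Of the marker lists of other cells, the summed leukocyte and epithelial markers stayed at or below 2.19 CPM in every library, and the summed endothelial markers lay between 8.71 and 12.5 CPM in all 4 groups. The pericyte and smooth muscle list moved with the groups. Its summed level was 319.8 to 338.5 CPM in control, and in the treated groups 295.8 to 306.6 (PNA-10b), 260.5 to 267.1 (PNA-21) and 264.1 to 283.7 (PNA-10b+21). Most of it came from PDGFRB and CSPG4, at 153.1 ± 14.5 and 155.9 ± 5.69 CPM in control, while the muscle marker DES had 0 to 2 counts in every library. The neuron list, mostly SNAP25, also moved, with 102.9 to 116.6 CPM in control and 83.7 to 95.4 CPM in PNA-10b+21. The part of these genes in the results on the 10 members was not tested.

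The untreated cells transcribed the genes of a laminin trimer at very unequal levels. To compare genes, CPM was divided by the length of the exons in kilobases. LAMC1, the common gamma chain, was highest at 140 CPM per kb in control, followed by the beta chains LAMB1 at 60.0 and LAMB2 at 55.3. NID2 at 19.3 and LAMA4 at 18.4 came next, then AGRN at 11.5, HSPG2 at 6.17, LAMA5 at 3.44, LAMA2 at 1.60 and NID1 at 0.175. The neighbours LAMB1 and LAMB2 overlapped in their control libraries, as did NID2 and LAMA4, and LAMC1 stood clear of all the others. With the longest transcript in place of all exons as the length, LAMA4 was at 32.5 and NID2 at 25.7, so the order of these neighbours depends on the transcript model. Among the alpha chains the order LAMA4, LAMA5, LAMA2 was the same with both lengths.

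**Figure D1:**
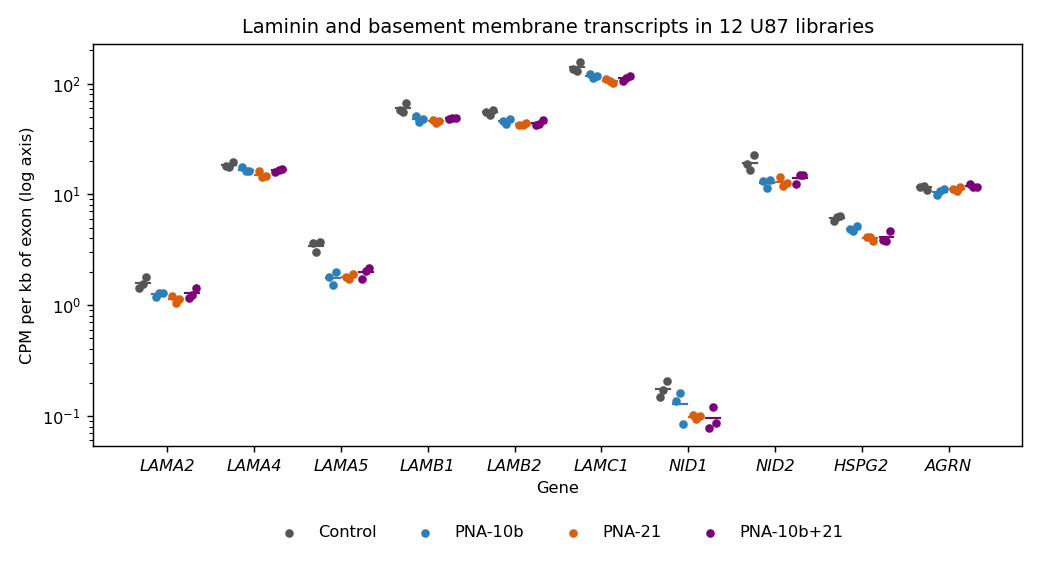
Levels of the 10 genes in all 12 libraries, as CPM per kilobase of exon on a log axis, with a point for each library coloured by group and a line at each group's mean. LAMC1 lies above all other genes in every group and NID1, at 0.175 CPM per kb in control, below them.

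Of the alpha chains, LAMA5 fell in all 3 treated groups, LAMA4 and LAMA2 fell in PNA-21 and PNA-10b+21, and the fall of LAMA5 was the largest of any member past the test. LAMA5 (ENSG00000130702, chr20:62307955-62367312, minus strand, hg38), which encodes a chain of vascular and epithelial basement membranes, had 51.8, 42.9 and 52.8 CPM in the control libraries. It had 25.4, 21.6 and 28.3 CPM in PNA-10b, 25.4, 24.7 and 27.5 in PNA-21, and 24.8, 29.2 and 31.1 in PNA-10b+21. Every treated library was below every control library, and the 3 treated groups overlapped each other. The log2 fold change against control was -0.97 ± 0.10 (SE) in PNA-10b, a fall of 48.8% by the fit, with an adjusted p of 9.01e-06 (edgeR's quasi-likelihood test, Benjamini-Hochberg adjustment over all 15715 genes, as in all adjusted p-values here). It was -0.92 ± 0.10 (adjusted p = 7.89e-07) in PNA-21 and -0.79 ± 0.10 (adjusted p = 4.22e-06) in PNA-10b+21. These calls held in every other setting and without any single library.

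LAMA4 (ENSG00000112769, chr6:112108760-112254939, minus strand) encodes the truncated alpha chain found in the basement membrane of vessels and was the most abundant alpha chain. Its control libraries had 208.4, 202.6 and 228.2 CPM, against 204.0, 188.2 and 187.2 in PNA-10b, 186.8, 166.6 and 168.1 in PNA-21, and 182.5, 193.4 and 193.9 in PNA-10b+21. PNA-10b overlapped with control and the other treated groups did not. LAMA4 changed by -0.29 ± 0.06 log2 in PNA-21 (adjusted p = 0.000688) and by -0.16 ± 0.06 in PNA-10b+21 (adjusted p = 0.0373). The difference in PNA-10b, -0.14 ± 0.06, did not pass (adjusted p = 0.159, 95% interval -0.26 to -0.02). The call in PNA-10b+21 was lost without Control 1 (-0.18, adjusted p = 0.0528), Control 3 (-0.12, 0.183), PNA-10b+21 replicate 1 (-0.14, 0.155) or replicate 2 (-0.18, 0.0642), and with scaling by library size alone (-0.12, 0.0915).

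LAMA2 (ENSG00000196569, chr6:128883141-129516569, plus strand), whose product serves muscle and Schwann cells and whose loss causes a congenital muscular dystrophy, was the lowest of the 3 alpha chains. It had 14.9, 16.1 and 18.6 CPM in control, 12.3, 13.3 and 13.3 in PNA-10b, 12.6, 10.8 and 11.7 in PNA-21, and 11.9, 12.7 and 14.9 in PNA-10b+21. PNA-21 and PNA-10b lay below control, and the highest PNA-10b+21 library met the lowest control library. The change was -0.49 ± 0.10 log2 in PNA-21 (adjusted p = 0.00116), -0.34 ± 0.10 in PNA-10b (adjusted p = 0.0503, not passed, interval -0.55 to -0.13) and -0.32 ± 0.10 in PNA-10b+21 (adjusted p = 0.0227). The value in PNA-10b passed without PNA-10b+21 replicate 3 (-0.34, adjusted p = 0.0389), with no filter (0.0433) and with a minimum count of 50 (0.0429). That in PNA-10b+21 was lost without Control 3 (-0.24, adjusted p = 0.124) or PNA-10b+21 replicate 1 (-0.25, 0.14) or replicate 2 (-0.30, 0.0757).

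The beta and gamma chains, which form the shared part of most laminin trimers, fell in all 3 treated groups, by less than LAMA5. LAMB1 (ENSG00000091136, chr7:107923799-108003255, minus strand), the widely used beta chain, had 474.9, 451.5 and 539.9 CPM in control and 410.8, 369.7 and 386.6 in PNA-10b. It had 384.6, 360.2 and 374.3 CPM in PNA-21 and 389.3, 401.6 and 396.1 in PNA-10b+21. No treated library reached the lowest control library. Its log2 changes were -0.33 ± 0.06 (adjusted p = 0.00174), -0.39 ± 0.06 (5.42e-05) and -0.30 ± 0.06 (0.000583), in the order PNA-10b, PNA-21 and PNA-10b+21.

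LAMB2 (ENSG00000172037, chr3:49121114-49133118, minus strand) encodes the beta chain of neuromuscular synapses and of the kidney filter. Control libraries had 382.0, 358.7 and 398.1 CPM, PNA-10b 316.6, 294.4 and 331.7, PNA-21 289.6, 290.2 and 305.6, and PNA-10b+21 290.2, 295.3 and 323.6. Again no treated library overlapped with control. In the same order of groups the changes were -0.27 ± 0.06 (adjusted p = 0.00553), -0.36 ± 0.06 (7.19e-05) and -0.32 ± 0.06 (0.000215). Without PNA-10b replicate 2 the fall in PNA-10b no longer passed (-0.23, adjusted p = 0.0649).

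LAMC1 (ENSG00000135862, chr1:183023460-183145592, plus strand) had 1147.4, 1082.2 and 1308.4 CPM in control, 1025.8, 939.6 and 974.5 in PNA-10b, 924.9, 890.9 and 851.4 in PNA-21, and 880.8, 948.8 and 979.8 in PNA-10b+21. All treated libraries lay below the control libraries, and the widest spread was within control. LAMC1 changed by -0.27 ± 0.06 (adjusted p = 0.0138), -0.41 ± 0.06 (7.36e-05) and -0.33 ± 0.06 (0.000522). The fall in PNA-10b was lost without Control 3 (-0.18, adjusted p = 0.114) and without PNA-10b replicate 2 (-0.24, 0.11).

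Of the nidogens, NID2 carried nearly all the signal and fell in every treated group. NID2 (ENSG00000087303, chr14:52004803-52069228, minus strand) had 119.5, 106.3 and 144.7 CPM in control, 83.8, 73.7 and 86.1 in PNA-10b, 91.1, 76.9 and 80.7 in PNA-21, and 80.1, 95.5 and 95.4 in PNA-10b+21. The highest treated library stayed under the lowest control library. The log2 changes were -0.60 ± 0.09 (adjusted p = 0.000505), -0.57 ± 0.09 (0.000109) and -0.45 ± 0.09 (0.00103), and all 3 calls held without any single library and in all other settings. NID1 (ENSG00000116962, chr1:235975830-236065162, minus strand) was near the floor of the assay, with 0.871, 1.00 and 1.21 CPM in control, 0.797, 0.943 and 0.500 in PNA-10b, 0.590, 0.546 and 0.581 in PNA-21, and 0.458, 0.708 and 0.502 in PNA-10b+21. PNA-21 and PNA-10b+21 were below all control libraries and PNA-10b overlapped them. Its fitted values were -0.44 ± 0.31, -0.82 ± 0.32 and -0.88 ± 0.33 log2, none of which passed (adjusted p = 0.467, 0.0598 and 0.0511). At these counts a difference of the size seen in NID2 was within its 95% intervals, which ran from -1.09 to 0.20 with sgPNA-10b, from -1.49 to -0.15 with sgPNA-21 and from -1.57 to -0.20 with both. In PNA-10b+21 it passed without PNA-10b replicate 3 (-0.88, adjusted p = 0.0477) and with limma-voom (-0.87, 0.049).

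Of the heparan sulfate proteoglycans, HSPG2 fell in all 3 treated groups and AGRN passed the test in none. HSPG2 (ENSG00000142798, chr1:21822245-21937297, minus strand) encodes perlecan, a large proteoglycan that binds laminin, nidogen and growth factors. It had 105.0, 113.9 and 116.1 CPM in control, 88.5, 84.6 and 93.8 in PNA-10b, 74.4, 75.3 and 68.8 in PNA-21, and 70.4, 68.8 and 84.2 in PNA-10b+21. The groups formed 3 steps, with control highest, PNA-10b in between and the libraries with sgPNA-21 lowest. HSPG2 changed by -0.33 ± 0.07 with sgPNA-10b (adjusted p = 0.0053), -0.62 ± 0.07 with sgPNA-21 (1.44e-06) and -0.58 ± 0.07 with both (2.6e-06), and the value in PNA-10b was -0.29 without PNA-10b replicate 2 (adjusted p = 0.0557).

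AGRN (ENSG00000188157, chr1:1020123-1056118, plus strand), whose product clusters acetylcholine receptors at the neuromuscular synapse and binds laminin and dystroglycan elsewhere, showed no change past the test. It had 124.4, 129.3 and 118.2 CPM in control, 105.6, 116.3 and 119.2 in PNA-10b, 119.9, 115.9 and 124.6 in PNA-21, and 132.8, 125.8 and 124.9 in PNA-10b+21. All treated groups overlapped with control. The log2 differences were -0.12 ± 0.05 (interval -0.24 to -0.01, adjusted p = 0.197), -0.05 ± 0.05 (-0.16 to 0.07, 0.569) and 0.04 ± 0.05 (-0.07 to 0.16, 0.607). With library size alone as the scaling the value in PNA-21 was 0.00.

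**Figure D2:**
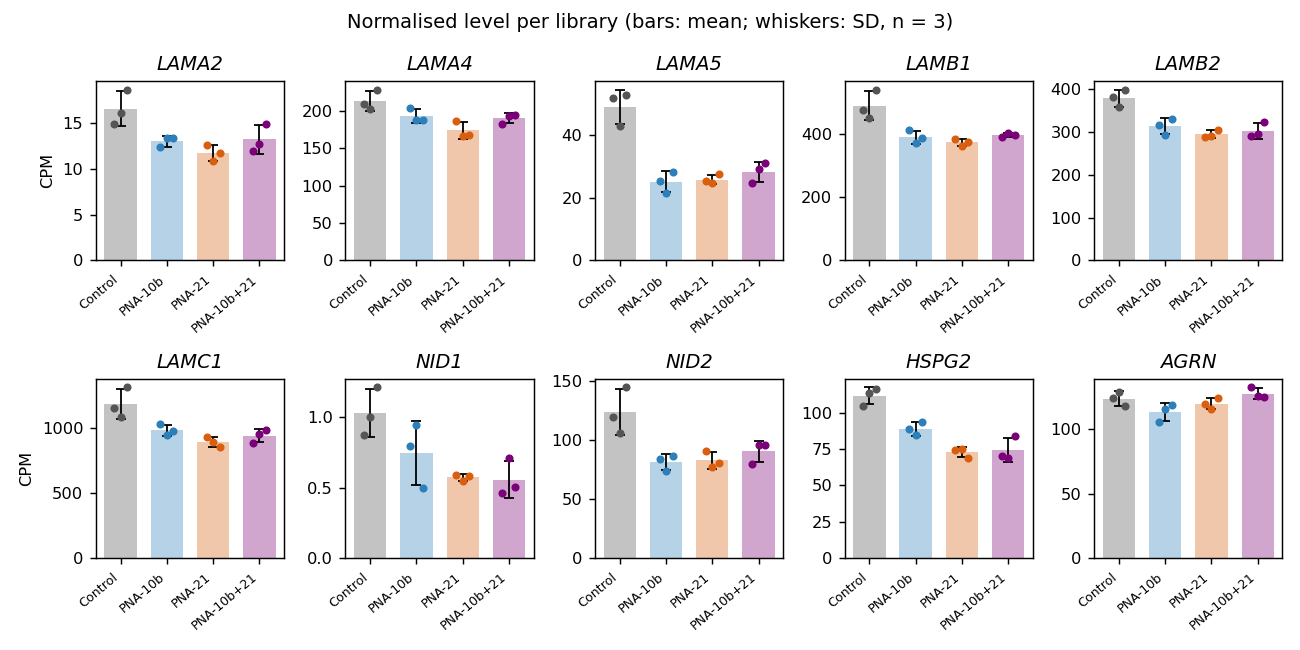
Level of each gene in CPM, from 0, with a bar at the mean of each group, a whisker of 1 SD and a point for each of the 3 libraries. LAMA5, LAMB1, LAMB2, LAMC1, NID2 and HSPG2 have all treated libraries below the control libraries, and each treated group of AGRN overlaps with control.

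Counted over the set, 6 of the 10 genes were lower in PNA-10b than in control, where 3.74% of all 15715 genes were called lower. In PNA-21 8 of 10 were lower, against 14.6% of all genes, and in PNA-10b+21 8 of 10, against 13.4%. The 6 genes of PNA-10b were LAMA5, LAMB1, LAMB2, LAMC1, NID2 and HSPG2, and LAMA2 and LAMA4 joined them in the other groups. No member was called higher in any of the 3 comparisons, where 2.75%, 15.2% and 13.6% of all genes were. All 3 treated libraries lay below all 3 control libraries for 7, 9 and 8 members in PNA-10b, PNA-21 and PNA-10b+21, against 12.8%, 20.9% and 19.9% of all genes. The median log2 difference of the 10 was -0.33, -0.45 and -0.33, and that of all genes was 0.00, -0.01 and 0.00. The 3 comparisons share the control libraries, so they are not independent of each other. Leaving out each library in turn gave 3 to 7 members for PNA-10b, with 3 without PNA-10b replicate 2 (LAMA5, LAMB1 and NID2), 8 in each case for PNA-21, and 6 to 9 for PNA-10b+21.

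**Figure D3:**
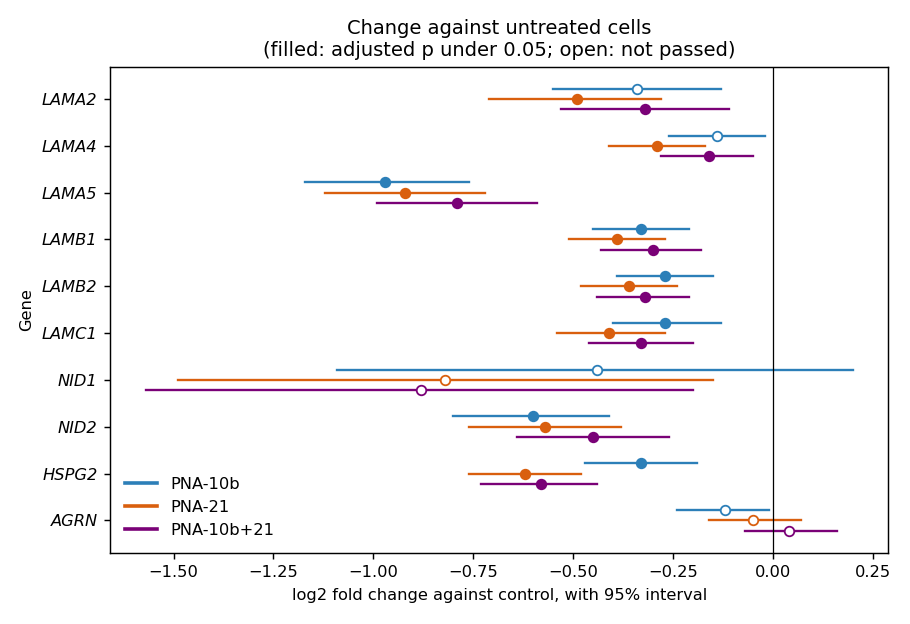
Log2 fold change against control of each gene in PNA-10b, PNA-21 and PNA-10b+21, with 95% intervals, filled where the adjusted p was under 0.05. LAMA5 has the lowest values of the genes that passed, and AGRN is the gene whose values lie nearest to 0 in PNA-21 and PNA-10b+21.

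Between treatments, HSPG2 was the member that differed. It was lower in PNA-21 than in PNA-10b by -0.29 ± 0.07 log2 (adjusted p = 0.0133) and lower in PNA-10b+21 than in PNA-10b by -0.26 ± 0.07 (adjusted p = 0.0213). It was 1 of 10 in each comparison, where 3.88% and 5.1% of all genes were called lower. The former call was lost without PNA-10b replicate 3 (-0.25, adjusted p = 0.0615) or PNA-21 replicate 3 (-0.25, 0.0704). The latter was lost without PNA-10b replicate 3 (-0.22, 0.106), PNA-10b+21 replicate 1 (-0.22, 0.137) or replicate 2 (-0.20, 0.127). The 2 arms with 1 sgPNA had the same dose and time. The intervals of PNA-21 minus PNA-10b were narrow for LAMB1, -0.18 to 0.06, and LAMB2, -0.21 to 0.03, and wider for LAMA5, -0.17 to 0.26, and NID2, -0.16 to 0.23. LAMA4 and LAMC1 were lower in PNA-21 by -0.15 and -0.14, with intervals of -0.27 to -0.03 and -0.27 to -0.01, and did not pass over all genes (adjusted p = 0.12 and 0.2). AGRN was 0.17 ± 0.05 higher in PNA-10b+21 than in PNA-10b (interval 0.05 to 0.28, adjusted p = 0.0552) and passed with DESeq2 (adjusted p = 0.0473). PNA-10b+21 and PNA-21 differ by the added sgPNA-10b and any carrier added with it. Between them, edgeR in the main fit called 0 of the 10 and 0.0% of all genes. At an unadjusted p under 0.05, edgeR's test gave 1354 genes, and of the 10 members only LAMA4 (0.13 ± 0.06, adjusted p = 0.541). DESeq2 called 25 genes in this comparison and limma-voom 0. With edgeR, 332 genes were called with no filter and 48 with only the groups compared in the fit.

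For 6 of the 10 genes the fall with both sgPNAs together was smaller than the falls with each alone added up. The interaction is the difference between PNA-10b+21 and PNA-10b less that between PNA-21 and control, and is 0 where log2 changes add up. Control cells had no nanoparticles, so the carrier enters the sum with each arm. How much carrier the combined arm received is not given in the sources used here. The part of the carrier thus cannot be told apart from that of the sgPNAs. The interaction was above 0 for all 10 genes and passed for 6, where 1.48% of all genes were called higher. LAMA5 had -0.97 and -0.92 in the arms with 1 sgPNA, which sum to -1.89, against -0.79 in the combined arm, an interaction of 1.09 ± 0.14 (adjusted p = 0.00116). NID2 had a sum of -1.17 against -0.45, an interaction of 0.72 ± 0.13 (adjusted p = 0.00822). LAMB1 followed, with a sum of -0.72 against -0.30 (0.41 ± 0.08, adjusted p = 0.0125).

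The LAMA5 libraries of the combined arm overlapped those of either arm alone. The interaction of LAMB1 was lost without PNA-10b replicate 2 (0.38, adjusted p = 0.059). HSPG2, with a sum of -0.94 against -0.58 (0.36 ± 0.10, adjusted p = 0.045), LAMC1, -0.67 against -0.33 (0.34 ± 0.09, 0.0423), and LAMB2, -0.63 against -0.32 (0.31 ± 0.08, 0.0397), also passed. With scaling by library size alone the calls of LAMB2 (0.28, adjusted p = 0.0534) and HSPG2 (0.33, 0.0645) were lost. Values for these 3 genes stayed between 0.26 and 0.41 without any single library, but the call failed for LAMB2 in 7 of the 12 left-out fits, for LAMC1 in 8 and for HSPG2 in 10. Leaving out Control 1, Control 3, PNA-10b replicate 2, PNA-21 replicate 2, or PNA-10b+21 replicate 2 or 3 ended the call for all 3 of them. Without Control 3, for example, LAMB2 had 0.27 (adjusted p = 0.118), LAMC1 0.26 (0.126) and HSPG2 0.33 (0.122). The call also failed without PNA-21 replicate 1 for LAMB2 (0.30, adjusted p = 0.0718) and HSPG2 (0.38, 0.0614), without PNA-10b replicate 3 or PNA-21 replicate 3 for LAMC1 (0.34, 0.0791, and 0.31, 0.0759) and HSPG2 (0.40, 0.0514, and 0.32, 0.0967), and without Control 2 for HSPG2 (0.35, 0.0534). The count of 6 became 2 without PNA-10b replicate 2, namely LAMA5 and NID2, which passed in every fit. It became 3 without Control 1, Control 3, PNA-21 replicate 2, or PNA-10b+21 replicate 2 or 3. LAMA2 (0.51 ± 0.15, adjusted p = 0.0601), LAMA4 (0.27 ± 0.08, 0.0722), AGRN (0.21 ± 0.08, 0.126) and NID1 (0.38 ± 0.48, 0.755) did not pass. LAMA4 passed with DESeq2 (adjusted p = 0.0394), with no filter (0.0484) and without Control 2 (0.30, 0.0348), PNA-10b replicate 1 (0.31, 0.036) or PNA-21 replicate 1 (0.32, 0.0396). LAMA2 passed with no filter (adjusted p = 0.0326) and without PNA-10b+21 replicate 1 (0.59, 0.0487).

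**Figure D4:**
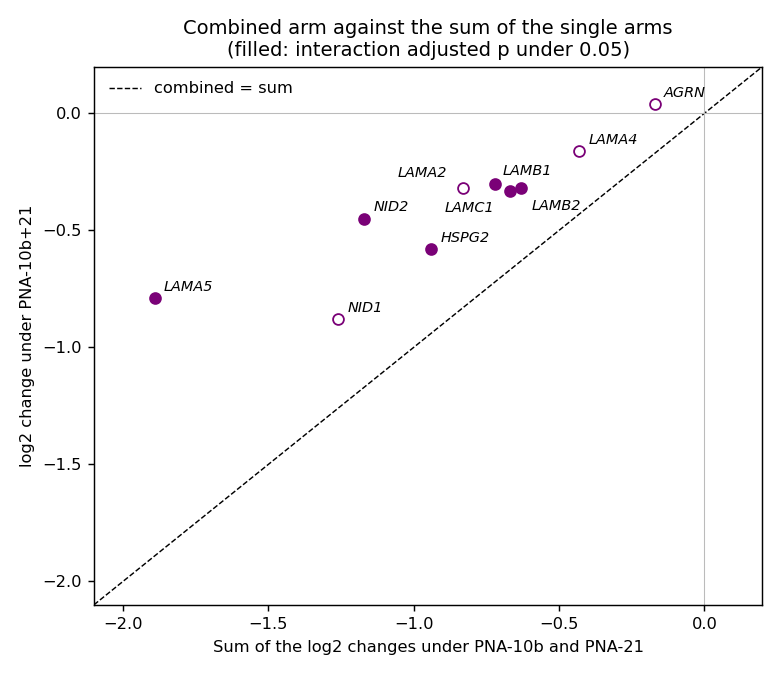
For each gene, the log2 change in PNA-10b+21 on the vertical axis against the sum of the log2 changes in PNA-10b and PNA-21 on the horizontal axis, with the dashed line where they are equal and filled points where the interaction passed. All 10 points lie above the line, LAMA5 farthest from it at -1.89 and -0.79.

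The make-up of the chain pool shifted at LAMA5. The shares below are of CPM per kb over all measured chains of a type, with LAMA1 and LAMA3 counted too, and describe RNA, not assembled trimers. LAMA5 made up 12.9%, 11.0% and 11.9% of alpha chain RNA in the control libraries. It made up 6.77%, 6.29% and 8.02% in PNA-10b, 7.43%, 7.83% and 8.38% in PNA-21, and 7.09%, 7.93% and 8.23% in PNA-10b+21, below control in each treated library. LAMA4 held 63.8% ± 0.395 (SD, n = 3) in control and 66.8% ± 1.14, 65.3% ± 1.98 and 64.3% ± 0.738 in the treated groups. LAMA1, the chain of embryonic basement membranes, went from 4.09% ± 0.372 to 4.88% ± 0.251, 6.09% ± 0.269 and 6.46% ± 0.405. Among the beta chains LAMB1 stayed at 47.3% to 48.5% and LAMB2 at 44.0% to 45.3% in the group means. The summed level of all alpha chains was 28.9 ± 2.00 CPM per kb in control and 25.0 ± 1.17, 23.0 ± 0.966 and 25.5 ± 1.02 in PNA-10b, PNA-21 and PNA-10b+21. For the beta chains it was 123.9 ± 8.75, 100.9 ± 4.69, 96.4 ± 2.70 and 100.3 ± 2.83, so beta chain RNA exceeded alpha chain RNA in every library.

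**Figure D5:**
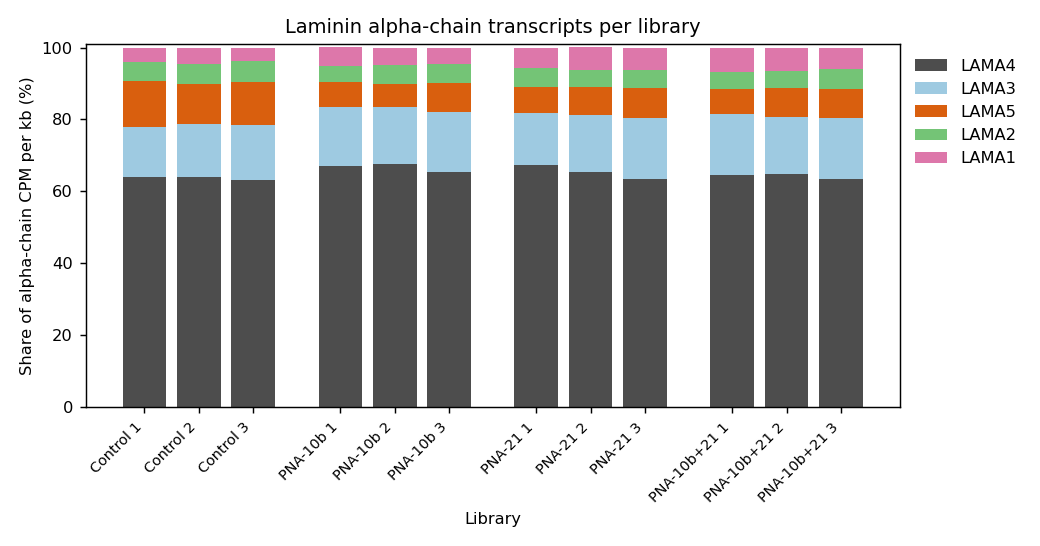
Share of each laminin alpha chain in the summed CPM per kb of all alpha chains, as a stacked bar for each of the 12 libraries. The LAMA5 band is 11.0% to 12.9% high in the control libraries and 6.29% to 8.38% in the treated libraries.

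The other genes of the basement membrane did not all move as the members did. Of the 6 other laminin chains, 4 were tested. LAMA1 rose in PNA-21 (0.25 ± 0.08, adjusted p = 0.0181) and PNA-10b+21 (0.49 ± 0.08, 7.45e-05). The LAMA1 call in PNA-21 was lost without Control 1 (0.22, adjusted p = 0.0727), Control 3 (0.24, 0.0527) or PNA-21 replicate 3 (0.22, 0.0685). LAMA3 was lower in PNA-21 (-0.22 ± 0.07, adjusted p = 0.0253), a call lost without Control 3 (-0.14, 0.174), PNA-21 replicate 1 (-0.18, 0.111) or replicate 2 (-0.20, 0.0857) and with library size alone (-0.17, 0.0854). LAMB3 had -0.22, -0.17 and -0.17 and passed in none. Of 8 basement membrane collagens 5 were tested, and in PNA-21 2 were higher and 2 lower, against 15.2% and 14.6% of all genes. In PNA-10b 1 was lower (COL4A5, -0.27 ± 0.06, adjusted p = 0.0134), where 3.74% of all genes were. In PNA-10b+21 2 were higher and 1 lower, against 13.6% and 13.4% of all genes. The main collagen IV chain COL4A1 had 0 to 2 counts in every library, while COL4A2, its partner, had 60 to 134. COL15A1 fell by 0.71 ± 0.14 log2 in PNA-21 (adjusted p = 0.000986). COL4A2 was higher in PNA-21 by 0.50 ± 0.15 (adjusted p = 0.0134) and in PNA-10b+21 by 0.60 ± 0.15 (0.00419). The former was lost without Control 1 (0.41, 0.0734) or PNA-21 replicate 2 (0.44, 0.0547). The other calls in PNA-21, COL4A6 (0.21 ± 0.07, adjusted p = 0.038) and COL4A3 with 4 to 12 counts (-1.17 ± 0.43, 0.0446), were lost without any single control or PNA-21 library, so that of these 4 genes only COL15A1 was past the test without Control 1. COL4A6 was then at 0.17 to 0.23 (adjusted p from 0.0525 to 0.145) and COL4A3 at -1.32 to -0.95 (0.0501 to 0.156). COL4A3 was also lost on leaving out replicate 2 (adjusted p = 0.0507) or 3 (0.055) of PNA-10b or replicate 2 of the combined arm (0.0568), with library size alone (0.0508), with no filter (0.1) and with the replicate block (0.0511), and COL4A6 with DESeq2 (0.0575). COL4A5 in PNA-10b was lost without Control 3 (-0.22, 0.0929) or PNA-10b replicate 2 (-0.23, 0.117).

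Of 18 other proteins of the basement membrane, 7 were tested, and 4, 5 and 4 were lower with sgPNA-10b, sgPNA-21 and both, where 3.74%, 14.6% and 13.4% of all genes were. PAPLN, counted in the former groups, was lost in PNA-10b with DESeq2 (adjusted p = 0.0807), with no filter (0.0587) and without any of the control libraries or PNA-10b replicate 2 or 3 (-0.53 to -0.46, 0.0534 to 0.128). In PNA-21 it was lost with DESeq2 (0.0747), with no filter (0.076) and without Control 3 (-0.42, 0.052) or PNA-21 replicate 2 (-0.33, 0.105). HMCN1, the giant matrix protein hemicentin, had -0.52 ± 0.09, -0.63 ± 0.09 and -0.41 ± 0.09 in the 3 groups (adjusted p = 0.00139, 2.56e-05 and 0.00159). SPARC, a collagen-binding protein, had -0.38 ± 0.06 in PNA-10b (adjusted p = 0.000741) and -0.60 ± 0.06 in PNA-21 (6.99e-07). TGFBI, which binds collagen and integrins, fell in PNA-21 by 0.68 ± 0.07 log2 (adjusted p = 4.24e-07). HMCN1 also had an interaction above 0, 0.74 ± 0.13 (adjusted p = 0.00625), as NID2 did.

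All 20 genes listed as laminin receptors and their partners passed the filter, ITGB4 with only 5 to 17 counts and SGCD with 6 to 17. In PNA-10b 2 were lower, in PNA-21 10 were lower and 1 higher, and in PNA-10b+21 8 were lower and 1 higher. Of all genes 3.74%, 14.6% and 13.4% were lower in these comparisons, and 15.2% and 13.6% were higher in the latter groups. Of the 2 in PNA-10b, ITGA7 and MCAM, the call of ITGA7 was lost without PNA-10b replicate 2 (-0.23, adjusted p = 0.0565). ITGA1, a collagen and laminin integrin chain, had -0.56 ± 0.07 in PNA-21 (adjusted p = 3.26e-06), the syndecans SDC2 and SDC4 -0.53 ± 0.06 (9.79e-07) and -0.40 ± 0.06 (2.65e-05), and ITGA7, a laminin integrin chain of muscle and glia, -0.39 ± 0.05 (1.48e-05). ITGB1, the beta chain of these integrins, had -0.27 ± 0.06 (adjusted p = 0.0024). DAG1, dystroglycan itself, and ITGA3, an integrin chain with 28815 to 37319 counts, did not pass, with -0.07 ± 0.05 and -0.11 ± 0.06. MCAM, ITGB1, DAG1 and ITGA3 were picked out after their values were seen. The sugar by which dystroglycan binds laminin and agrin is made by a series of enzymes, of which 12 of 13 were tested. In PNA-10b 1 was lower, B4GAT1, and in PNA-21 and PNA-10b+21 3 were, against the same shares of all genes. POMT1 was lost in PNA-21 without PNA-21 replicate 2 (-0.22, adjusted p = 0.0872), and in PNA-10b+21 with DESeq2 (0.059), with library size alone (0.0961) and without any single control or PNA-10b+21 library (-0.29 to -0.24, 0.0528 to 0.137). B4GAT1 had -0.35 ± 0.05 in PNA-21 (adjusted p = 7.19e-05).

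The heparan sulfate carried by HSPG2 and AGRN is made by another set, of which 15 genes were found in the table and 13 tested. In PNA-10b edgeR, DESeq2 and limma-voom each called 0 of them, with 3 at an unadjusted p under 0.05 in edgeR. In PNA-21 and in PNA-10b+21 3 were lower and 2 higher. Of all genes 14.6% and 15.2% were so in PNA-21, and 13.4% and 13.6% in PNA-10b+21, shares near those of the list. EXTL3, counted as higher in PNA-21 (0.15 ± 0.05, adjusted p = 0.039), was lost without Control 2 (0.14, 0.104), Control 3 (0.12, 0.168), PNA-21 replicate 1 (0.13, 0.136) or 2 (0.15, 0.0789) or PNA-10b+21 replicate 1 (0.15, 0.0511), and with only the groups compared in the fit (0.0516). EXT1, counted as lower in PNA-10b+21 (-0.15 ± 0.04, adjusted p = 0.0131), was lost with library size alone (-0.10, 0.0687) and with no filter (-0.14, 0.0927). In PNA-21 against control, NDST1, which prepares the chain for sulfation, had -0.48 ± 0.05 (adjusted p = 1.62e-06). In the same comparison XYLT1, which starts the chain, had -0.40 ± 0.05 (1.54e-05) and B3GAT3, which completes the linker, 0.24 ± 0.06 (0.00266). Of 12 proteases known to cut these proteins 10 were tested. In PNA-10b 5 were lower, in PNA-21 3 were lower and 2 higher, and in PNA-10b+21 4 were lower and 3 higher. Of all genes 3.74%, 14.6% and 13.4% were lower in these comparisons, and 15.2% and 13.6% were higher in the latter groups. The calls of PLAT and MMP2 in PNA-10b were lost without Control 1 (-0.35, adjusted p = 0.0678, and -0.19, 0.114), Control 3 (-0.35, 0.0633, and -0.19, 0.119) or PNA-10b replicate 2 (-0.39, 0.0596, and -0.20, 0.149), and that of MMP2 also without PNA-10b replicate 3 (-0.23, 0.0505) and with only the groups compared in the fit (-0.22, 0.0623). CTSL, higher in PNA-21 (0.20 ± 0.06, adjusted p = 0.0162), was lost without Control 2 (0.16, 0.0785) or PNA-21 replicate 3 (0.16, 0.0831). In PNA-21 BMP1, which processes laminin chains, had -0.77 ± 0.07 (adjusted p = 1.77e-07) and PLAT, a plasminogen activator, -0.79 ± 0.09 (2.29e-06), whereas ADAMTS1 had 0.29 ± 0.05 (0.000137).

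The members were also compared with each other and with 8591 other genes by pattern over the 12 libraries, as the root mean square difference of log2 CPM after each gene was centred on its mean. This is a description without a test, and a small value is easier to reach for a gene that varies little. LAMB1 and LAMC1 were the closest members (0.0511), followed by LAMB2 and LAMC1 (0.0658) and LAMB1 and LAMB2 (0.0667). Each of these chains had genes outside the set nearer to it than any other member, as the values below show. AGRN and LAMA5 were the farthest apart (0.40). Closest to LAMC1 outside the set were MYLK (0.0317), NRP1 (0.0326) and VCAN (0.0385), and closest to LAMB1 were P3H1 (0.0391), AHDC1 (0.0426) and CHPF2 (0.0427). The nearest to LAMB2 was ABCA2 (0.0324), to LAMA4 KIAA0319L (0.0369), to LAMA2 GALNT10 (0.0787) and to HSPG2 KIAA0895L (0.0552). LAMA5 had ITGA10 nearest (0.0818), an integrin chain with -0.82 ± 0.10, -0.87 ± 0.10 and -0.70 ± 0.10 log2 in the 3 treated groups, then MFAP4 (0.114) and SNED1 (0.126), both matrix proteins. NID2 had HMCN1 nearest (0.0964).

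Promoters are shown for 4 members, LAMA5 with the largest fall, LAMB1 and LAMC1 as the closest pair, and LAMA4 as the most abundant alpha chain and a contrast in base composition. Each sequence runs from 250 bases before to 50 bases after the RefSeq start (GRCh38.p14), 5′ to 3′ on the gene's strand, with the GC box GGGCGG in capitals in either orientation. They are chr20:62367263-62367562 (minus strand), chr7:108003112-108003411 (minus), chr1:183023170-183023469 (plus) and chr6:112254518-112254817 (minus).
LAMA5: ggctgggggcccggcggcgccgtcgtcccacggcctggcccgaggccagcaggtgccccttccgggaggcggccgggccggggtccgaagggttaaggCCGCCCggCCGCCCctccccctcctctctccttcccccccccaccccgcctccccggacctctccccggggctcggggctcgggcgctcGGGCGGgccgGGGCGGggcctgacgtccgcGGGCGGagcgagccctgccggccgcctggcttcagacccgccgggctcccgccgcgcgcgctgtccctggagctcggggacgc
LAMB1: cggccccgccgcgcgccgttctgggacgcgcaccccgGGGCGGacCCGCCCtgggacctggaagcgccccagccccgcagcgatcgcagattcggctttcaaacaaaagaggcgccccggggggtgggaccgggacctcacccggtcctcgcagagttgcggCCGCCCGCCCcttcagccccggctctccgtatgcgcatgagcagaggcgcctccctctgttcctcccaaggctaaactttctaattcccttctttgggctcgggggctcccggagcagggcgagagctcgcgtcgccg
LAMC1: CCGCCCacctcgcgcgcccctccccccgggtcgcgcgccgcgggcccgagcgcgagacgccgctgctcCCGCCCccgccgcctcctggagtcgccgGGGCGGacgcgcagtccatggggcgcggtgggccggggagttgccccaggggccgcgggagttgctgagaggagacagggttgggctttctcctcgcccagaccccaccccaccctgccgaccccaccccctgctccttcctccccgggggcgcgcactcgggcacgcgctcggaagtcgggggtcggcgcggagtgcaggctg
LAMA4: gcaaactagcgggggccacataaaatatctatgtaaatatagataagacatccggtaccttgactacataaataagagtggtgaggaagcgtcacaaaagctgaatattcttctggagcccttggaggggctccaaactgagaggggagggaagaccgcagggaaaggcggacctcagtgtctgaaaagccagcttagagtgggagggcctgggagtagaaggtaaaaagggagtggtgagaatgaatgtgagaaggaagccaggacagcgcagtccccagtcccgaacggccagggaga
The GC box was counted on both strands with overlapping matches allowed. LAMA5 held 5, LAMB1 4, LAMC1 3 and LAMA4 0. Of the other members NID2 held 4, HSPG2 10, NID1 1, LAMB2 1 and LAMA2 0, and AGRN is named only. In all, 7 of 9 promoters held a GC box and 5 of 9 held at least 3, against 44.6% and 15.9% of 27305 promoters of the same length. GC content was 82.7% in LAMA5, 79.0% in LAMC1, 71.0% in LAMB1 and 51.3% in LAMA4, with a median of 58.3% over all promoters. GGGCGG is itself rich in G and C, and the part of composition in these counts was not tested. CCAAT was found in 2 of 9 (35.7% of all), and ACGTG, the core of the hypoxia response element, and the AP-1 site TGACTCA in 0 of 9 (21.6% and 4.92% of all).

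Several members overlap with genes on the opposite strand, and the strand setting of the counting was not known, so reads there could be shared. ADRM1, which overlaps LAMA5, had 0.13, 0.21 and 0.23 log2 in PNA-10b, PNA-21 and PNA-10b+21 (adjusted p = 0.283, 0.018 and 0.00977), opposite in sign to LAMA5. DLD, at LAMB1, had 0.09, 0.24 and 0.16 (adjusted p = 0.344, 0.000993 and 0.0212). RTRAF, at NID2, had 0.00, 0.10 and 0.11 and LAMC1-AS1, with 37 to 70 counts, -0.02, -0.25 and -0.18, and neither passed. LAMB2 overlapped no other gene of the annotation.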

How the data were processed

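The deposited table holds raw counts for each gene, whole numbers with no normalization by the authors, for 12 libraries of polyadenylated RNA made with a stranded kit, per the labels' protocols. HISAT2 2.1.0, SAMtools 1.7, HTSeq 0.11.0 and the build hg38 were used, per the submitters' processing notes. Which strand setting and annotation were used is not given in the sources used here. Places and exon lengths came from GENCODE release 29, joined by gene identifier, and sequences from RefSeq tables (GRCh38.p14), which matched 9 of the 10 promoters.

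Genes were kept with filterByExpr (minimum count 10; 15715 genes with 99.84% of counts) and scaled with TMM. All 12 libraries entered 1 quasi-likelihood fit (edgeR 4.0.16, R 4.3.3) with a mean per group, so a common spread serves all groups (common biological coefficient of variation 0.0518). p-values were Benjamini-Hochberg adjusted over all genes of each of 7 comparisons, with a threshold of 0.05. Errors of log2 changes are standard errors and intervals are unadjusted 95% intervals. The fit was also run on simulated data, with an outcome that is not reported here. Every member and, from 7 lists, up to 5 tested genes with the smallest p in PNA-21 against control were named, and genes named beyond these are said to be so. For pattern likeness, genes were used from an average log2 CPM of 4 upwards. The members and lists were chosen with earlier results of these data known. Alternatives were other scaling, filters, tools, groups in the fit, a replicate term and each library left out.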

Additional observations from a re-analysis of the deposited data

Results flagged for a closer look

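For 6 of the 10 genes the change from control to PNA-21 differed from that between PNA-10b and PNA-10b+21, by the interaction test of edgeR. The former goes from cells without nanoparticles to cells with them, and the latter compares groups that both had them. The amount of carrier in the combined group is not given in the sources used here. An effect of the carrier thus cannot be told apart from that of the sgPNAs here. The difference, on the log2 scale, was 1.09 for LAMA5, 0.72 for NID2, 0.41 for LAMB1, 0.36 for HSPG2, 0.34 for LAMC1 and 0.31 for LAMB2. In each case the change from control to PNA-21 was a fall, and PNA-10b+21 differed from PNA-10b by a smaller negative value or by a value above 0. LAMA5, for example, had -0.92 ± 0.10 in the former and 0.17 ± 0.10 in the latter, and NID2 had -0.57 ± 0.09 and 0.15 ± 0.09. HSPG2 had -0.62 ± 0.07 and -0.26 ± 0.07. LAMA5 and NID2 passed in every fit with a library left out.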

How the results depend on the processing

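Depth limits NID1, with 8 to 17 counts per library, and no change of it was called by the main test. All 8 falls in PNA-21, and those of LAMA5, LAMB1 and NID2 in each treated group, held in every setting. So did the falls of LAMB2, LAMC1 and HSPG2 in PNA-10b+21. Counts of members past the threshold without each library in turn ran, against control, from 3 to 7 (PNA-10b), 8 to 8 (PNA-21) and 6 to 9 (PNA-10b+21), 0 to 1 in PNA-21 against PNA-10b, 0 to 1 in PNA-10b+21 against PNA-10b, 0 to 0 in PNA-10b+21 against PNA-21, and 2 to 7 in the interaction. The cause was not tested. DESeq2 gave 2 members (HSPG2 lower, AGRN higher) in PNA-10b+21 against PNA-10b. With library size alone AGRN in PNA-21 against control was 0.00. Signs that turned when a library was left out belonged to uncalled values. In PNA-21 against PNA-10b, LAMA5 ran from -0.05 to 0.14 and NID2 from -0.04 to 0.08. In PNA-10b+21 against PNA-10b, LAMA2 ran from -0.09 to 0.09, LAMA4 from -0.05 to 0.02 and LAMB1 from -0.01 to 0.07. In PNA-10b+21 against PNA-21, HSPG2 ran from -0.06 to 0.09, NID1 from -0.25 to 0.07 and LAMB2 from -0.01 to 0.07. With the longest transcript as length, control levels in CPM per kb were 84.8 for LAMB1, 66.9 for LAMB2, 32.5 for LAMA4, 25.7 for NID2, 16.8 for AGRN, 7.79 for HSPG2 and 4.30 for LAMA5.

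With a replicate block the members past the threshold numbered 7, 8 and 8 in PNA-10b, PNA-21 and PNA-10b+21 against control, 1, 1 and 0 in the pairs of treatments, and 7 in the interaction. The block added LAMA2 in PNA-10b (adjusted p = 0.0322) and in the interaction (adjusted p = 0.0394) and changed no other call of a member. The block raised the share of all genes called from 6.48% to 8.09% in PNA-10b against control and from 3.12% to 4.52% in the interaction. The correlation of deviations exceeded 0.1 in 1 of 18 same-numbered pairs. It ran from -0.058 to 0.109 in these and from -0.087 to 0.118 in other pairs. On average, 6 of 12 libraries correlated best with their own number. Correlations were small in both kinds of pair, so they do not settle whether the replicate numbers pair the libraries.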
